A study of Mus musculus with 8 samples.

Results

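Flag-MBD5 CLIP (crosslinking and immunoprecipitation followed by sequencing) peaks were described in mouse embryonic stem (mES) cells, as a catalogue of the transcripts that came down with MBD5. All peaks of the 2 Flag-MBD5 libraries were taken, which were 5362 in replicate 1 and 5388 in replicate 2, or 10750 of the 29555 peaks of the whole series. Peaks on the same strand that overlapped by 1 bp or more between the replicates were merged, and the 4019 merged regions with a peak of each library formed the main set. The series holds 8 samples of wild-type mES cells that stably overexpressed a human coding sequence, either MBD5 or MBD6, behind a 3×Flag tag, as CLIP libraries and inputs in duplicate. The construct was brought in by lentivirus and kept under hygromycin B, so the tagged protein is human, was made on top of the mouse protein and was studied at a level set by the vector. Inputs were digested alongside the immunoprecipitates with RNase T1, an enzyme that cuts behind G, and were not analysed here as samples of their own. The tissue label reads embryos, while the cell line label reads mESC. The characteristics of the libraries and the study's methods give a Flag antibody, whereas the labels' extraction protocol gives one against MBD6. The study's methods speak of biological replicates, while the labels do not say whether the libraries came from separate cultures.

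MBD5 belongs to the methyl-CpG-binding domain family, whose founding members recognise methylated cytosine in DNA. It is known as a partner of the Polycomb repressive deubiquitinase complex (PR-DUB), in which BAP1 and an ASXL protein remove monoubiquitin from histone H2A, the mark laid down by Polycomb repressive complex 1. The study examined MBD5 as a possible reader of 5-methylcytosine (m5C) in RNA, a base made by NSUN enzymes and oxidised by TET2. It reported that MBD5 in cells enriched RNA with m5C and concluded that the protein prefers such RNA.

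The first 30 nt of the strongest coding regions are shown to let the reader see the kind of sequence that was recovered. They run 5′ to 3′ from the most upstream base of the merged region, were read from the GENCODE M21 transcripts, and carry coordinates of build mm10. Capitals mark GAAGA, the pentamer on which the sequence comparison further on turns. Each gene is represented by its strongest region. Hsp90b1 and Eif3a are not shown because the 5′ end of their strongest region did not lie in the exons of the coding transcript.
Sptbn1 (chr11:30135816-30136115, − strand): cccaccaccctggaaggagctgaagcagcc
Hsp90aa1 (chr12:110693935-110694333, − strand): aacgagataaggaagtcagtgatgatgagg
Lamc1 (chr1:153228944-153229187, − strand): aagcaaataaaatcaagaaagaagctgcag
Pkm (chr9:59668923-59669200, + strand): ctgaggtggagctGAAGAagggagccactc
Canx (chr11:50296944-50297373, − strand): tacaaGAAGAcggatgctccccagccagat
Hsp90ab1 (chr17:45570177-45570532, − strand): atgaggcagagGAAGAgaaaggtgagaaag
Trap1a (chrX:139334198-139334485, + strand): tcgatgaggatGAAGAcgatgaggatgatg
Calr (chr8:84842544-84842839, − strand): agagaagcagatgaaggacaagcaggatga
Ssr1 (chr13:37991879-37992094, − strand): ctcaagatcctacaGAAGAtGAAGAaatag
Rpl4 (chr9:64178257-64178564, + strand): ctactgcactggcaaccaaatccgagaagg
Nrd1 (chr4:109013573-109013949, + strand): taagacaggaaatgcaacagatGAAGAgga
Ncl (chr1:86356837-86357381, − strand): aaaaaaggctgcagttcccacaccagctaa

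Of these 12 sequences, 6 held GAAGA and 10 were preceded in the transcript by G. The remaining 2, Calr and Ncl, were preceded by C. Purine runs rich in A are visible in most of them, also in those without the pentamer, such as the Lamc1 site.

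Of the 4019 regions 3932 lay in 2181 annotated genes, and the other 87 were intergenic. Of these genes 1612 were protein-coding, or 7.32% of the 22028 protein-coding genes of the annotation. That share is the background against which each gene group below is read. A region was placed at the position 15 nt from its 5′ end, since reads were extended to 150 bp without regard to splicing. Coding sequence held 3122 regions (77.7%, 95% Wilson interval 76.4 to 78.9%), and non-coding exons held 670 (16.7%, 15.6 to 17.9%). The 5′ UTR held 53 regions, the 3′ UTR 50 and introns 37. Reads that aligned equally well to more places than the authors' limit, given with the processing below, had been dropped before peaks were called. RNA from repeats with many near-identical copies could therefore be missed. The class shares describe the reads that were kept, and they cannot show how much repeat RNA came down with MBD5. Among protein-coding genes 958 had a single region, whereas 87 genes with 6 or more regions together held 804 of their 3314. For 73 regions more than 1 gene was annotated at the position, and 1 was chosen. The abundance of each transcript was not measured in the files used here, and its part in these counts was not tested.

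The summit reads of the replicates were closer to each other than Poisson sampling would give. At 685 sites, chosen by their reads in the other CLIP experiment of the series, the chi-square of the summit reads was 0.522 per degree of freedom, where sampling noise alone gives 1. A further 13 of the 698 sites chosen lacked a peak in at least 1 Flag-MBD5 library and could not enter, so the value holds for sites with a peak in both. As a precaution the libraries were counted as 1 sample, both values are given throughout, and no p value was computed over them. In replicate 1, 75.5% of peaks (74.4 to 76.7%) overlapped a peak of replicate 2, and the reverse share was 74.9% (73.7 to 76.0%). The peaks found in 1 library alone were weak: their median fold enrichment was 7.98 in replicate 1 and 7.90 in replicate 2, their highest was 17.9 and 18.2, and none of them reached 20. In the reproducible regions 82.5% of regions had folds within 1.5 times of each other, and 90.2% had summit reads within that range. Across the 4019 regions Pearson's r of the log2 folds was 0.82, a description over sites that were chosen for a peak in both libraries. The 5′ end was the same base in both libraries for 1121 regions (27.9%) and lay within 15 nt for 3117 (77.6%). The depth was about 478790 reads in replicate 1 and 500143 in replicate 2, estimated from the deposited peak values, and the median summit held 16 reads in each. The intervals cover counting error only.

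**Figure D1:**
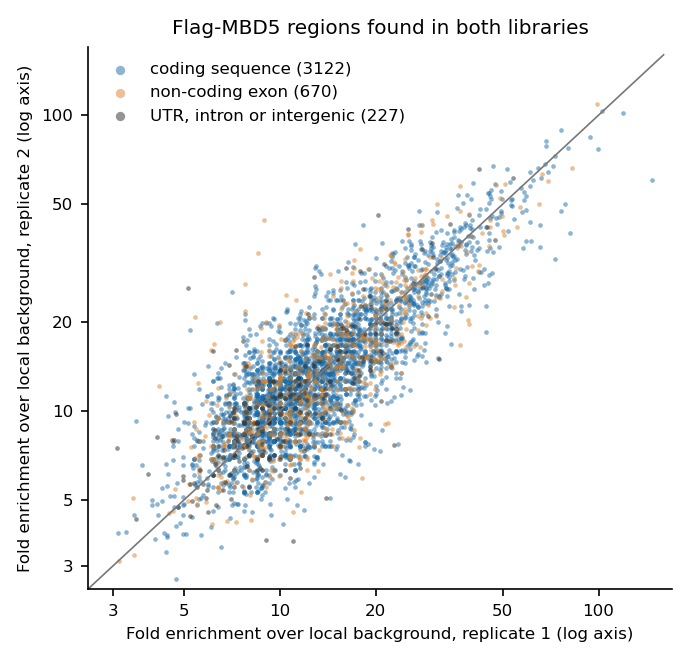
Fold enrichment over the local background of each of the 4019 reproducible regions, with replicate 1 on the x axis and replicate 2 on the y axis (both log axes) and colours for coding sequence, non-coding exons and all other positions. The points follow the diagonal of equal folds, and coding and non-coding regions cover the same range.

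Fold enrichment is the deposited ratio of the signal at the peak summit to the local background rate. For 38.8% of peaks in replicate 1 and 38.4% in replicate 2 that rate was the lowest of the strand. Among those peaks on a strand, the fold followed the summit reads alone. The study's methods do not name the control used in peak calling. Each list was taken here as called against the Flag-MBD5 input, so a fold is read as enrichment over a background rate estimated from the input. By the mean rank of the best region over both libraries Sptbn1 and Hsp90b1 tied for the first place. Sptbn1 encodes βII-spectrin of the membrane skeleton. Its region in exon 16 of 31 reached 120-fold in replicate 1 and 101-fold in replicate 2, with 149 and 143 summit reads. Hsp90b1, the HSP90 chaperone of the endoplasmic reticulum (ER), reached 103-fold and 104-fold in exon 17 of 18 (chr10:86691509-86691753). The strongest 20 genes comprised 16 protein-coding genes, 3 pseudogenes and 1 snoRNA gene. In 19 of them the folds of the libraries lay within 1.5 times of each other. The exception was Trap1a, a tumour rejection antigen gene on the X chromosome, with 147-fold in replicate 1 and 60.5-fold in replicate 2. Its summit reads were 244 and 241, while the background rate was 0.664 and 3.00 reads per position, so the libraries differed in the background and hardly in the reads at the site.

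**Figure D2:**
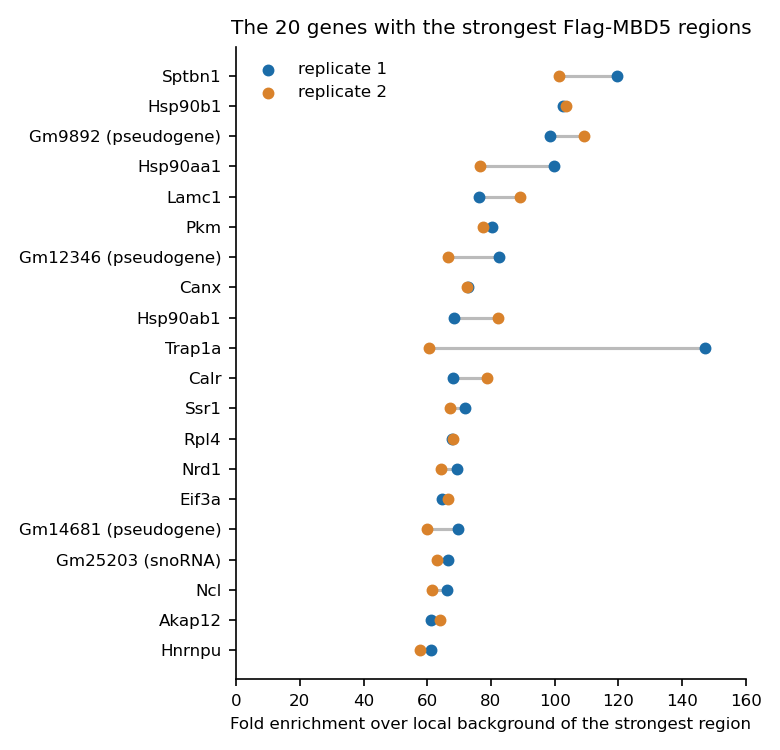
Fold enrichment over the local background (x axis) of the strongest region of each of the 20 genes with the best mean rank, with 1 point per library joined by a line. All 20 genes lie at 57.7-fold or higher in both libraries, and the libraries stand far apart for Trap1a alone.

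Chaperone genes were read from a list of HSP90 and HSP70 members. Of its 19 genes 9 had a region (47.4%, 27.3 to 68.3%), and their median best fold was 39.7 in replicate 1 and 36.1 in replicate 2, against 12.9 in each library over all protein-coding genes with a region. The cytosolic HSP90 genes Hsp90aa1 (99.8-fold and 76.6-fold) and Hsp90ab1 (68.3-fold and 82.1-fold) carried 7 and 6 regions. Hsp90b1 carried 9. The first 30 nt of the best regions of Hsp90aa1 and Hsp90ab1 were each found in 2 further genes. Of the 9 listed genes with a region, 7 had one whose first 30 nt occurred in no other annotated gene. Hspa5, the HSP70 chaperone of the ER known as BiP, reached 39.7-fold and 52.2-fold in its last exon. The ER lectin chaperones Canx and Calr, which hold newly made glycoproteins, and Ssr1 belong to no list and are named for their place among the 20 strongest genes. Canx (calnexin) had 8 regions and reached 72.9-fold and 72.6-fold in exon 13 of 15. Calr (calreticulin) had 4 regions and reached 68.2-fold and 78.6-fold in its last exon. Ssr1, a subunit of the translocon-associated protein complex, reached 71.8-fold and 67.2-fold. Chaperonin genes had a region in 4 of 10 cases, led by Cct5 at 25.1-fold and 33.2-fold.

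Messenger RNAs of the translation machinery were hit at several levels. Of 38 initiation factor genes 17 had a region (44.7%, 30.1 to 60.3%), with a median best fold of 19.9 and 17.1. Eif3a, the largest scaffold subunit of eIF3, had 11 regions, the strongest at 64.6-fold and 66.4-fold. Eif3c reached 45.5-fold and 54.5-fold. Eif2s2, the β subunit of eIF2, reached 47.4-fold and 58.7-fold. Among 13 elongation factor genes 5 had a region, and Eef2, which drives translocation of the ribosome, had 10. Eef1a1, which delivers aminoacyl-tRNA, had its strongest region in the 5′ UTR at 34.3-fold and 42.8-fold, and this was also the strongest of the 53 regions in 5′ UTRs. Of 23 cytosolic aminoacyl-tRNA synthetase genes 6 had a region (26.1%, 12.5 to 46.5%), with 6 regions in Eprs alone.

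Ribosomal protein genes were recovered in 49 of 86 cases (57.0%, 46.4 to 66.9%). These genes have many processed pseudogenes, and 16 of the 86 had a region whose first 30 nt occurred in no other annotated gene. Rpl4 was the strongest, with 5 regions and a best one at 67.7-fold and 68.2-fold. Rpl26 reached 47.7-fold and 44.8-fold, yet its first 30 nt were found in 6 further genes. Genes of nucleolar ribosome biogenesis had a region in 27 of 38 cases (71.1%, 55.2 to 83.0%), and 25 of them had one with a unique sequence. They included Ncl (nucleolin), with 7 regions and a best one at 66.1-fold and 61.4-fold in exon 3 of 14. The RNA helicase gene Ddx21 reached 58.2-fold and 51.7-fold in its second exon. Wdr43, which acts in the small subunit processome, reached 49.3-fold and 47.3-fold in its last exon.

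Splicing factors and other RNA-binding proteins were represented by their own transcripts. The core spliceosome had 21 of 33 genes with a region (63.6%, 46.6 to 77.8%), among them Sf3b2 at 52.0-fold and 40.5-fold and Snrnp200, the helicase that unwinds U4/U6, at 45.4-fold and 37.8-fold. SR and RS-domain factors had 20 of 36 (55.6%, 39.6 to 70.5%), all 20 with a unique sequence. Srrm1 reached 51.5-fold and 65.7-fold, and Srrm2, a scaffold protein of nuclear speckles, held 13 regions. The hnRNP list had 13 of 29 (44.8%, 28.4 to 62.5%). Hnrnpu, which binds RNA and chromatin, led it with 9 regions and a best one at 61.02-fold and 57.7-fold, the next being Hnrnpul2 at 19.96-fold and 22.1-fold. DEAD and DEAH box helicase genes had 21 of 53 (39.6%, 27.6 to 53.1%). Paraspeckle and FET protein genes had 7 of 11 (63.6%, 35.4 to 84.8%). Sfpq, a core paraspeckle protein, reached 76.1-fold and 47.3-fold with 105 and 107 summit reads, and its paralogue Pspc1 had 3 regions, the best at 24.7-fold and 28.4-fold. For Sfpq, too, the background rates differed (0.392 and 1.29) and the summit reads did not.

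Transcripts of chromatin proteins made up a further large group. Chromatin remodelling ATPases and their partners had a region in 23 of 38 genes (60.5%, 44.7 to 74.4%), where genes of like coding length gave 14.1%. Chd4, the ATPase of the NuRD complex, had 15 regions, the strongest at 59.4-fold and 47.7-fold in exon 12 of 39. Atrx had 10 regions and reached 42.3-fold and 45.8-fold. Bptf, a subunit of the NURF complex, had 11 and reached 43.6-fold and 30.3-fold. Cohesin, condensin and other SMC genes had 13 of 22 (59.1%, 38.7 to 76.7%), led by Smc1a at 46.2-fold and 29.4-fold. Large acidic nuclear proteins had 17 of 20 (85.0%, 64.0 to 94.8%), with median best folds of 30.6 and 24.8, and 14 of them had a region with a unique sequence. Among them Anp32b reached 59.2-fold and 53.4-fold, and Set, a histone chaperone, reached 54.3-fold and 44.5-fold, though the first 30 nt of the Set site were found in 7 further genes. The list of acidic proteins was drawn up with earlier results of these data in view. MCM helicase and topoisomerase genes had 6 of 18, among them Mcm3 at 45.5-fold and 50.6-fold.

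Genes of the pathway in which MBD5 has been studied were looked at next. Of the 11 PR-DUB genes 2 had a region (18.2%, 5.14 to 47.7%), where genes of like coding length gave 14.1%. They were Bap1, the catalytic subunit, at 13.9-fold and 7.62-fold with 17 and 9 summit reads, and Mbd5 itself at 7.70-fold and 7.62-fold with 9 summit reads in each library. The Mbd5 region lay 96.2% of the way along the coding sequence. These cells also overexpressed a human MBD5 coding sequence, and reads were aligned to the mouse genome with mismatches allowed. Whether the reads of this region came from the mouse transcript or from the construct was not tested. Asxl1 had a peak in each library, at 12.7-fold and 8.28-fold, but they did not overlap, and Mbd6 had no peak in either. The PR-DUB count rested on the threshold, with 0 of 11 at a fold of 8 or more in both libraries and 4 of 11 in each library taken alone. Polycomb complexes had 11 of 35 genes with a region (31.4%, 18.6 to 48.0%). Jarid2, an accessory subunit of PRC2, had 5 regions and reached 33.5-fold and 36.6-fold, and the PRC2 core genes Eed and Suz12 reached 21.1-fold and 28.3-fold and 19.3-fold and 15.2-fold.

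Of 15 genes for TET and DNA methylation enzymes 4 had a region (26.7%, 10.9 to 51.9%). Dnmt1, the maintenance methyltransferase, had 5 regions and reached 45.3-fold and 39.9-fold. Tet1 had 5 regions, the strongest of them at the very start of its coding sequence (0.850% along) at 22.0-fold and 30.5-fold. Tet2 had 1 region, at 17.9-fold and 9.68-fold, and Tdg, the glycosylase that removes oxidised methylcytosine, had 1 at 10.8-fold and 9.91-fold. The first 30 nt of the Tdg region were found in 3 further genes. Of 13 writers and readers of m5C in RNA 4 had a region. Ybx1, a cold-shock protein that binds m5C, reached 44.3-fold and 18.5-fold with 59 and 64 summit reads and background rates of 0.354 and 2.52. The first 30 nt of the Ybx1 region were found in 1 further gene. Nop2 reached 19.6-fold and 14.5-fold, Nsun2 had 3 regions with a best one at 14.1-fold and 13.3-fold, and Ybx3 had 3 with a best one at 15.7-fold and 7.10-fold.

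Long cytoskeletal transcripts carried the most regions per gene. Spectrin, filamin and other large cytoskeletal genes had a region in 21 of 28 cases (75%, 56.6 to 87.3%) and together held 202 regions. When protein-coding genes were split into 5 equal groups by coding length, the longest group gave 16.5%. Its median coding length was 3108 nt, far below that of the longest genes here, such as Dst (23151 nt). Dst (dystonin), which links cytoskeletal filaments, had the highest number of any gene, with 30 regions spread over 26 exons. Its folds ran from 5.39 through a median of 15.6 to 65.4 in replicate 1, and from 5.39 through 18.9 to 47.6 in replicate 2. Myh9, the heavy chain of non-muscle myosin II, had 21, each in a different exon, which was 3.57 regions per kb of coding sequence. Sptan1 and Sptbn1, the α and β chains of spectrin, had 19 each. The dynein heavy chain gene Dync1h1 had 18, Iqgap1, a scaffold of the cell cortex, 17, and Macf1 17. Further genes outside the cytoskeleton list completed the 10 with the most regions, namely Tpr, which encodes the filaments of the nuclear pore basket, with 18, Chd4 with 15 and the ubiquitin ligase gene Huwe1 with 15. For 8 of these 10 genes every region had folds within 2 times of each other in the libraries, and the share was 95.2% in Myh9 and 88.9% in Dync1h1. The list of large ubiquitin ligases, which includes Huwe1 and also the deubiquitinases Usp7, Usp9x and Usp34, had 13 of 15 members with a region. The same longest group, at 16.5%, is its comparison.

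Basement membrane genes had a region in 8 of 15 cases (53.3%, 30.1 to 75.2%). Lamc1, the γ1 chain of laminin, stood out at 76.1-fold and 89.0-fold in exon 23 of 28, with 9 regions, and Hspg2 (perlecan) had 10 regions, the best-ranked at 17.2-fold and 14.5-fold. Kinesin genes had 11 of 38 (28.9%, 17 to 44.8%), led by Kif20a at 25.4-fold and 24.5-fold. Nuclear transport genes had 16 of 55 (29.1%, 18.8 to 42.1%), led by Tpr and by the importin gene Ipo7 at 38.0-fold and 28.5-fold. With replicate 1 taken alone 25 of the 55 had a peak. Among 18 glycolytic genes 5 had a region, and 8 had a peak in each library taken alone. Only 2 of the 18 had a region whose first 30 nt occurred in no other annotated gene. Pkm (pyruvate kinase) was the strongest, with 7 regions and a best one at 80.2-fold and 77.4-fold with 176 summit reads in each library. The first 30 nt of that region were found in 1 further gene.

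Proteasome genes had 9 of 49 (18.4%, 9.98 to 31.4%), and nuclear-encoded oxidative phosphorylation genes had 19 of 84 (22.6%, 15.0 to 32.6%). Replication-dependent histone genes had 18 of 67 (26.9%, 17.7 to 38.5%), of which 7 had a region with a unique sequence. Both leading histone genes encode linker histones, Hist1h1b at 42.1-fold and 29.5-fold and Hist1h1a at 26.4-fold and 30.9-fold. Of the 13 proteins encoded by mitochondrial DNA 6 had a region, with many reads but low enrichment over a high background: mt-Co2 had 195 and 204 summit reads at 8.94-fold and 9.70-fold. The widest region of the set, 2660 bp, began in the mitochondrial ribosomal RNA gene mt-Rnr1 and reached 10.8-fold and 9.14-fold.

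Marker genes were read against the label of the cells. Of 27 pluripotency genes 10 had a region (37.0%, 21.5 to 55.8%), with median best folds of 11.3 and 13.0. L1td1, an RNA-binding protein gene active in pluripotent cells, reached 35.6-fold and 29.5-fold. Tfcp2l1, a transcription factor of the naive state, reached 27.2-fold and 32.4-fold, Zfp42 (Rex1) 17.9-fold and 29.6-fold and Tbx3 20.9-fold and 19.7-fold. Sox2 had 1 region at 5.34-fold and 6.41-fold, while Pou5f1 and Nanog, which define the state, had no peak. None of 18 markers of differentiated lineages had a region, and the interval of that count reaches 17.6%. With replicate 2 taken alone 1 of the 18 had a peak. Of 14 markers of feeder fibroblasts, which the labels say were cleared by passaging on gelatin, Fn1 (fibronectin) alone had regions, 14 of them, the best at 34.5-fold and 33.6-fold. With replicate 2 taken alone 2 of the 14 had a peak. None of 1092 olfactory receptor genes had a region (interval up to 0.351%).

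**Figure D3:**
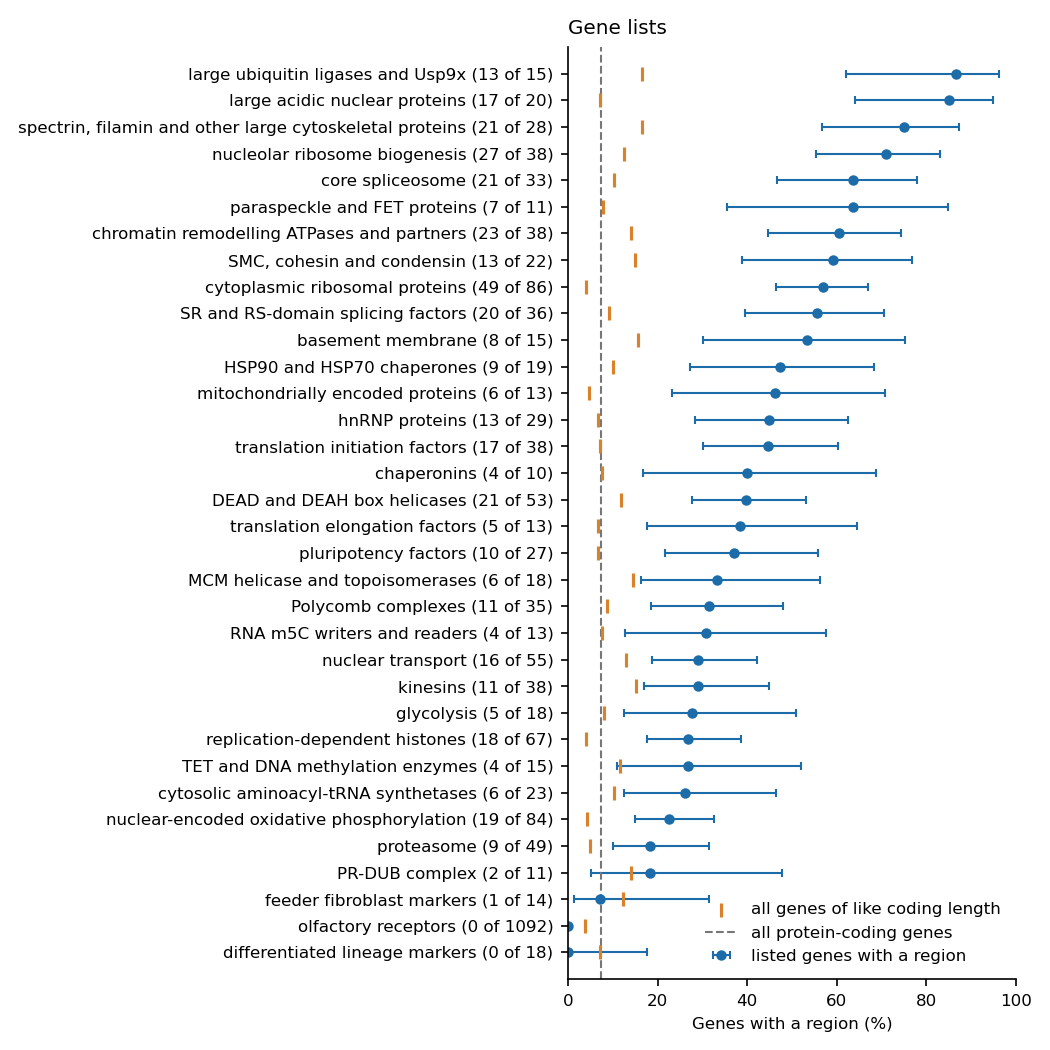
Share of the annotated genes of each list that had a reproducible region (x axis, percent), with bars for 95% Wilson intervals, an orange tick for the share among all genes of like coding length and a dashed line for all protein-coding genes (7.32%). The list of large ubiquitin ligases and Usp9x and that of acidic nuclear proteins stand highest, while feeder markers, lineage markers and olfactory receptors lie at or below the line.

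Of the 34 lists 31 stood at 2 or more times the background share. Since these lists were drawn up with earlier results known, their counts describe the catalogue and set no list apart from other active genes. Transcript abundance was not measured here. Coding length moved with the share of genes hit. When protein-coding genes were split by coding length into 5 equal groups, it was 4.03% in the group with the shortest sequences, 3.58%, 4.81% and 7.86% in the next groups, and 16.5% (15.4 to 17.6%) in the group with the longest, of 2232 nt or more. For the spectrin, remodelling ATPase and ubiquitin ligase lists the interval lay above the share in their length groups. For PR-DUB and TET genes it covered that share. The longest group is open-ended, with a median of 3108 nt, and does not match genes such as Macf1 (22065 nt) or Huwe1 (13134 nt). The part of length among such genes was not tested. In the fold-ranked list long and short genes stood side by side, as Sptbn1 (coding sequence of 7089 nt) and Rpl4 show.

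Within transcripts the regions were spread along the coding sequence. With the coding sequence cut into 10 equal parts, the first part held 344 regions, the last 261, and the parts between them 294 to 355. The 5′ part up to the midpoint held 52.7% (51.0 to 54.5%). The exon with the placed position had a median length of 183 nt, and 429 of the 3122 coding regions (13.7%) lay in exons of 1000 nt or more. In 59.2% of coding regions the exon ended within the 150 bp by which reads were extended, so the extended reads ran past the end of the exon. The class of a region moved with the point used to place it. By the midpoint of the region coding sequence held 54.6% of regions and introns 21.3%, and by the summit 58.6% and 17.04%, in place of 77.7% and 0.921%. Regions of 400 bp or more numbered 245. In Akap12, an anchoring protein of protein kinase A, a region of 2372 bp in exon 3 of 4 reached 61.1-fold and 64.1-fold.

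**Figure D4:**
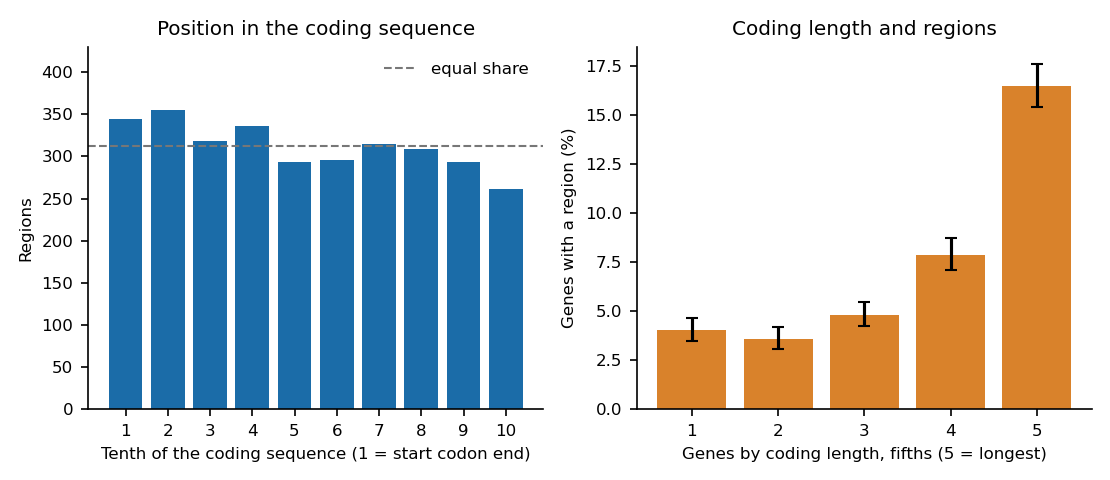
Left, number of coding regions in each of 10 equal parts of the coding sequence from the start codon (x axis), with a dashed line at an equal share. Right, percent of protein-coding genes with a region in each of 5 equal groups by coding length, with 95% Wilson intervals. It is 3.58 to 4.81% in the 3 groups with shorter sequences and 16.5% in the longest.

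Sequence at the 5′ end was compared with the whole coding sequence of the same 1506 transcripts. In 83.9% of 3003 coding windows (82.6 to 85.2%) the transcript had a G just upstream, the base behind which RNase T1 cuts, and in 13.3% it had a C. Within the first 30 nt A made up 37.9% of bases against 28.5% in the coding sequences, T 14.7% against 21.1%, C 21.4% against 24.3% and G 26.0% against 26.2%. In the libraries taken alone A made up 38.2% and 38.3%. CpG made up 3.51 of 100 dinucleotides against 2.83.

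GAAGA, searched on the transcript strand, was found in 1336 of the 3003 windows (44.5%, 42.7 to 46.3%), in 46.0% of those of replicate 1 and in 44.8% of those of replicate 2. Of all 30 nt windows of the same coding sequences 11.8% held it, as did 12% of those that follow a G. The pentamer was picked after the hexamers had been counted. The commonest hexamers shared letters with it, namely AGAAGA in 21.5% of windows against 4.59%, GAAGAA in 20.6% against 4.47%, AAGAAG in 19.3% against 4.29% and TGAAGA in 16.5% against 3.74%. GAAGAC was rarer, in 11.02% of windows, but of the 12 commonest it stood farthest above its share in coding sequences, 2.05%. Sequence contexts named for m5C sites were not raised over the coding sequences. CNGGG, the context of NSUN2 sites, was in 6.29% of windows (5.48 to 7.22%) against 9.57%. CTCCA, the context of NSUN6 sites, was in 4.56% (3.87 to 5.37%) against 4.95%. The windows came from RNA cut behind G and were set against undigested sequence. These shares therefore cannot decide whether such contexts were preferred. The files do not show which cytosines carry a methyl group.

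The share of windows with GAAGA did not follow the strength of the region. It was 46.3% (42.8 to 49.9%) in the weakest of 4 equal groups of regions, whose median fold was 7.73 and 7.90, then 41.4% and 43.9%, and again 46.3% in the strongest group, whose median fold was 22.5 and 22.6. The share of A ran from 36.8% in the weakest group to 38.3% in the strongest.

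Read in frame, the windows were richer in codons for charged residues than the coding sequences as a whole. Glutamate made up 15.0% of their codons against 8.71% in the whole coding sequences, lysine 13.3% against 7.21% and aspartate 8.52% against 5.50%. By codon, GAA made up 8.83% against 3.98%, AAG 8.54% against 4.12%, and GAC 5.06% against 2.75%. Cysteine (0.555% against 1.62%), valine (2.94% against 5.73%) and phenylalanine (1.57% against 2.99%), whose codons all hold T, were rarest relative to the coding sequences. The 5′ end fell on the second codon position in 43.2% of windows, on the first in 35.3% and on the third in 21.5%.

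**Figure D5:**
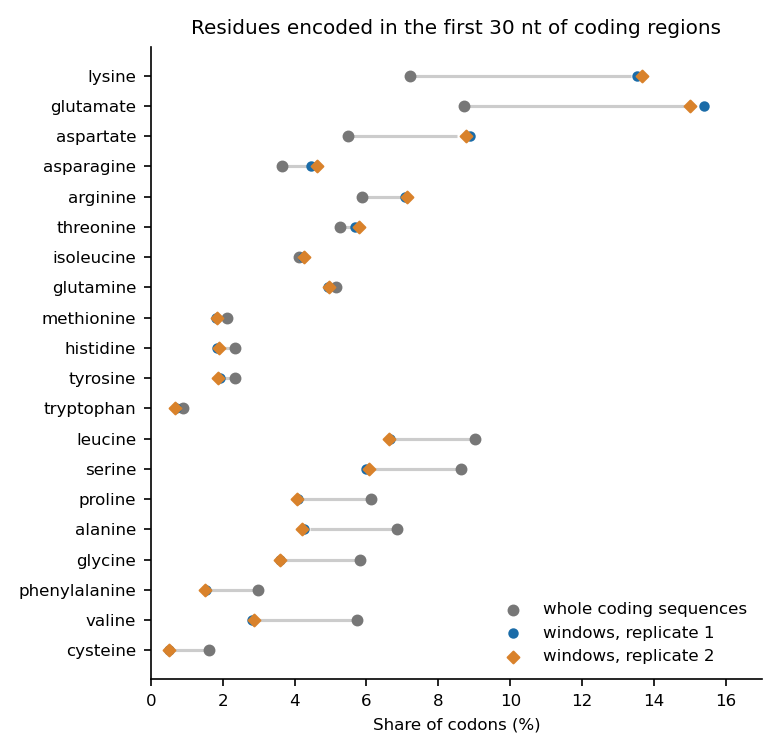
Share of codons (x axis, percent) for each amino acid in the first 30 nt of coding regions, given for each library, and in the whole coding sequences of the same transcripts (grey). Lysine, glutamate and aspartate lie to the right of the grey points in both libraries, and cysteine, valine and phenylalanine lie to the left.

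Processed pseudogenes held 324 regions in 288 genes, or 2.81% of the 10237 annotated, with median folds of 12.2 and 12.05, beside 11.6 and 11.97 for protein-coding genes. Their windows resembled coding ones in sequence, with GAAGA in 41.2% (35.8 to 46.7%) and A at 36.7%. Of the 311 whose first 30 nt could be read, 259 (83.3%, 78.7 to 87.0%) shared all 30 nt with a protein-coding gene. Hsp90aa1 and Hspa8 matched 10 pseudogene regions each, Npm1, Rps6 and Set 7 each. The authors kept reads with up to 10 equally good alignments and reported 1 place for each, so such a region and its coding copy cannot be told apart from these files. The strongest example was Gm9892 (chr8:52196477-52197043), at 98.5-fold and 109-fold, whose first 30 nt also occur in Eif2s2. They are shown with those of the region in Eif2s2 itself, which begins 12 nt further downstream, and capitals again mark GAAGA.
Gm9892 (chr8:52196477-52197043, − strand): agatgatttttgatcctactatgagcaaaa
Eif2s2 (chr2:154888060-154888350, − strand): atcctactatgagcaaaaagaaaaaGAAGA

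Small structured RNAs were also recovered. Regions lay on 153 snoRNA and scaRNA genes, or 9.82% of those annotated, with median folds of 13.8 and 14.2. By name, 40 of 98 Snord genes (box C/D guides of 2′-O-methylation), 11 of 42 Snora genes (box H/ACA guides of pseudouridylation) and 7 of 9 Scarna genes (guides of the Cajal body) were hit. The remaining 95 of the 153 had other names and were 6.74% of the 1409 annotated genes so named. Regions on Snord genes began at a median of 8 nt from the annotated 5′ end of the RNA. Gm25203, annotated as a snoRNA gene on chromosome 12, was the strongest at 66.6-fold and 63.2-fold. Snord89 reached 51.1-fold and 58.5-fold, and Snord118 (U8), which acts in processing of the large ribosomal subunit RNA, reached 31.1-fold and 50.0-fold with 155 summit reads in replicate 1 and 156 in replicate 2. The windows on snoRNAs differed from coding ones: GAAGA was in 4.70% of 149 (2.29 to 9.38%), T made up 29.1% of bases, and G preceded the 5′ end in 53.2%. Spliceosomal snRNA genes held 41 regions in 41 genes, or 2.96% of the 1385 annotated, the strongest in copies of U2 such as Rnu2-10 (25.4-fold and 23.0-fold) and in U11 (Rnu11, 24.9-fold and 16.4-fold). For 35 of these 41 the first 30 nt occurred in another gene. Genes for 5S ribosomal RNA held 39 in 39 genes, or 11.02% of those annotated, although the authors had removed ribosomal RNA reads, and n-R5s109 led them at 50.2-fold and 40.6-fold with a window found in 49 further genes. Neither the 41 snRNA windows (interval up to 8.57%) nor the 32 readable 5S windows (up to 10.7%) held GAAGA.

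Long non-coding RNAs contributed 36 regions in 24 genes, or 0.2499% of those annotated, against 7.32% of protein-coding genes. Malat1, an abundant RNA of nuclear speckles, had 3 regions, and the strongest (chr19:5801451-5801946) reached 50.7-fold and 39.3-fold with 189 and 187 summit reads. Both leading regions of Malat1 held GAAGA within their first 30 nt and are shown to compare with the coding windows.
Malat1, strongest region (chr19:5801451-5801946, − strand): aaGAAGAttagaaaatggaagtgaaagacg
Malat1, next region (chr19:5800888-5801355, − strand): cattcagtgaactagGAAGAcaggagcggc

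The snoRNA host genes Snhg3 (28.3-fold and 28.7-fold) and Snhg1 (22.8-fold and 32.0-fold) and the imprinted Meg3 (25.8-fold and 26.6-fold) were also among the 5 strongest, as was Gm26561, at 30.7-fold and 30.1-fold in an intron. Xist, Neat1 and Rpph1 had no peak. Rmrp, the RNA of RNase MRP, had 219 and 242 summit reads at 9.40-fold and 10.1-fold, and Rn7sk, which holds back P-TEFb, had 112 and 119 reads at 5.58-fold and 6.16-fold, so both stood on a high background. Over the 27 long non-coding windows that could be read, GAAGA was in 18.5% (8.18 to 36.7%).

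Introns held few regions when placed by the 5′ end. The strongest of the 37 lay in Lcor, a nuclear receptor corepressor gene, at 30.0-fold and 37.1-fold (chr19:41525536-41525961), and the next were in Gm26561 and Trrap. The best of the 50 regions in 3′ UTRs, in Wdr89, reached 15.6-fold and 19.6-fold, and the median in 3′ UTRs was 7.71 and 8.00, against 11.7 and 11.97 in coding sequence. Intergenic regions numbered 87 with medians of 11.5 and 12.6. The strongest of them, at chr11:109011699-109011942 on the − strand, reached 54.0-fold and 61.5-fold with 138 summit reads in each library. It was followed by chr13:9834191-9834423 on the − strand, at 42.2-fold and 65.6-fold. Their sequences and repeat content were not analysed here.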

How the data were processed

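Per the study's methods and the labels, the authors filtered, clipped and collapsed reads, kept those over 15 nt, removed ribosomal RNA, aligned the rest to mm10 with Bowtie 1.0.0 (up to 3 mismatches, at most 10 alignments, 1 reported), split strands with SAMtools 1.16.1 and called peaks per library and strand with MACS2 (version 2, extension 150, genome size 130000000, up to 5 copies kept) at q under 0.01. Each library has its own peak list, and replicates were not pooled. The deposited score is MACS2's whole-number rescaling of −log10 q, the deposited fold is a ratio of summit signal to local background, and 2 more deposited columns give −log10 of p and of q from MACS2. The deposited summit is an offset in bases.

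From these, whole summit reads and the Poisson background rate were solved (100% of peaks had a solution), and the lowest rate per strand gave the depth. In a test on 400 simulated peaks all reads (100%) were recovered. The simulated reads and background rates stayed below those of the highest sites. One such site was mt-Rnr1, with 565 and 580 summit reads and background rates of 51.5 and 62.6, so the test does not cover it. Python 3.11.15, pandas 2.3.3, numpy 2.4.6 and SciPy 1.17.1 were used with GENCODE M21, whose GRCm38 assembly is mm10. No test was run over libraries. Sites for the replicate check had 60 or more summit reads in each Flag-MBD6 library. Lists hold symbols matched to the annotation. The share for genes of like coding length is the mean, over a list, of the share in each member's group when genes are split into 5 by coding length.

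Named genes were the 20 with the best mean rank of fold, the 10 with the most regions, up to 4 per list, 17 looked up, and the 5 best per kind of non-coding gene and intergenic region. The leading genes of introns and UTRs, the ER genes and the motif were chosen after values were seen. Members and lists were chosen with earlier results of these data known.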

Additional observations from a re-analysis of the deposited data

How the results depend on the processing

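Depth limits the set, since most summits hold few reads and a missing region does not show that a transcript was unbound. Of the values that answer a comparison, 36 of 50 under the settings other than leaving out a library stayed within 1.5 times (counts) or within the 95% interval of the main value (shares), as did 17 of 20 that left out a library. With the union of both libraries there were 6684 regions, 3290 genes and 11.25% of protein-coding genes. With a fold of at least 8, 76.81% of peaks of replicate 1 were found in replicate 2, 5.784% of protein-coding genes had a region, and A made up 38.39% of window bases. With a reciprocal overlap of 50%, the shares found in the other library were 73% and 72.64%. Placing regions by the midpoint gave 54.59% in coding sequence and 21.32% in introns, and by the summit 58.6% and 17.04%. In windows of 50 nt GAAGA was in 57.91% and A made up 36.97%. Leaving out either library gave 9.329 to 9.565% of protein-coding genes, and A at 37.61 to 38.11%.

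Of the single lists, PR-DUB genes ranged from 0 (fold of at least 8) to 5 (union), mitochondrially encoded genes fell to 1, oxidative phosphorylation genes to 11 and pluripotency genes to 6 at a fold of at least 8, and with the union histone genes numbered 32, nuclear transport genes 27, proteasome genes 14, glycolytic genes 10, MCM and topoisomerase genes 10 and aminoacyl-tRNA synthetase genes 11. With the union 2 feeder markers and 1 lineage marker had a region, and by the midpoint or the summit 1 olfactory receptor gene had one. The cause of these moves was not tested, beyond the fewer or more peaks that each setting admits. No paired analysis was possible because no result here comes from a test between groups, and the inputs that share the replicate numbers were not analysed as samples of their own.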
